A study of Mus musculus with 12 samples.

Results

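The 10 transcription factors described here build and maintain the alveolar epithelium, and were followed in sorted mouse alveolar type 2 (AT2) cells. They were Nkx2-1, Foxa1, Foxa2, Gata6, Cebpa, Cebpd, Etv5, Klf5, Elf3 and Sox9, chosen by name and matched to the gene names of the deposited expression table, which holds 21878 genes. All 10 were found. Of these, 9 passed the filter on low values (at least 1 FPKM in at least 3 of 12 libraries), none of them through a single group, since each was at 2.43 FPKM or more in every library. Sox9 stayed under the filter and was not tested. FPKM is the number of fragments per kilobase of transcript, scaled to the number of mapped fragments in the library, so levels of different genes can be set side by side.

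AT2 cells make pulmonary surfactant and are the progenitor cells of the alveolus, where they renew themselves and give rise to the flat alveolar type 1 (AT1) cells. The factors form a network. NKX2-1, the FOXA pair and GATA6 set the lung endoderm fate and bind surfactant promoters, the C/EBP factors drive the maturation and lipid genes of AT2 cells, ETV5 acts downstream of FGF and ERK signalling to hold the AT2 state, KLF5 and ELF3 act in epithelial differentiation and injury responses, and SOX9 marks the distal tip progenitors of the embryonic lung.

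The 12 libraries fall into 4 groups of 3 biological replicates, all from C57BL/6 mice that carry floxed Atg5 alleles (Atg5f/f). Atg5 encodes a protein needed to form autophagosomes. AT2-PBS and AT2-BLM came from Atg5f/f mice, the wild type of the labels, given PBS or bleomycin (BLM), which damages the epithelium of the alveoli, at 2 U/kg into the trachea. Atg5-/- AT2-PBS and Atg5-/- AT2-BLM came from Nkx2.1-Cre;Atg5f/f mice given PBS or BLM. The Cre is driven by the promoter of Nkx2-1, itself one of the 10 factors, and acts in the lung epithelium from development on. Mice in the BLM experiments were 8 to 12 weeks old. Cells were collected at day 14 (no day was found for Atg5-/- AT2-PBS). The sort kept EpCAM+ cells that were negative for CD24 and Sca-1 and for the endothelial and blood markers CD31, CD34 and CD45. The comparisons ask how the factors respond to BLM, how they differ without Atg5, and whether the BLM response differs between the genotypes.

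Relative depth lay between 1 and 1.15 across libraries. Atg5 itself was at 6.01 to 12.5 FPKM in the 6 wild-type libraries and at 6.72 to 10.1 FPKM in the 6 Atg5-/- libraries, a value over the whole transcript that also counts exons outside the floxed part and so does not check the deletion. Sftpa1, Napsa, Slc34a2 and Lamp3, markers of AT2 cells, were at 304 FPKM or more in every library, while Sftpc was listed at 0 in 11 libraries and at 112570 FPKM in AT2-BLM replicate 2, so it was not used as a marker. Insulin and other islet hormone transcripts summed to between 3216 and 3226 FPKM in AT2-PBS replicate 1 and Atg5-/- AT2-PBS replicates 1 and 2, and to 4.09 FPKM at most elsewhere. Transcripts of 4 Y-linked genes summed to between 14.2 and 20.9 FPKM in 5 libraries (AT2-PBS 2 and 3, AT2-BLM 3, Atg5-/- AT2-BLM 2 and 3) and to 0.733 FPKM at most in the other 7, although the study's methods name male mice. In bulk RNA of this kind, fewer cells of a type and less RNA per cell cannot be told apart.

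Promoter windows of 300 bases around a start site, most of them upstream, were found in RefSeq (GRCm38.p6) for 6 of the 10 factors, 9 windows in all. The promoters of 3 factors that were lower after BLM are shown here together with Elf3, which was not, so that the results on these genes can be read beside their start sites. All 4 run 5′ to 3′ on the gene's strand, Cebpa on the plus strand and the others on the minus strand. Capitals mark matches to 1 of 7 short motifs searched on both strands. The FOXA motif was searched as TGTTTAC. That of NKX2-1 was searched as CAAGTG, and that of the C/EBP factors as TTGCNNAA. The GATA motif was read as AGATAA and the ETS motif as CCGGAAG. For the KLF factors it was GGGTGTGG, and for the SOX factors AACAAAG. The last letters of the FOXA motif, read on the other strand, can overlap the SOX motif.
Etv5, chr16:22439521-22439820: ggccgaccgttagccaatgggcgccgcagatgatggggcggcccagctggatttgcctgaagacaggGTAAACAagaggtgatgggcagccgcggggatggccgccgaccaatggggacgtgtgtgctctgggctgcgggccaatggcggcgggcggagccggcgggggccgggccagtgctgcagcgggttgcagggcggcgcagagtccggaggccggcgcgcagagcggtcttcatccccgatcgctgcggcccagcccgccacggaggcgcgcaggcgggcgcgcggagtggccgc
Foxa1, chr12:57546062-57546361: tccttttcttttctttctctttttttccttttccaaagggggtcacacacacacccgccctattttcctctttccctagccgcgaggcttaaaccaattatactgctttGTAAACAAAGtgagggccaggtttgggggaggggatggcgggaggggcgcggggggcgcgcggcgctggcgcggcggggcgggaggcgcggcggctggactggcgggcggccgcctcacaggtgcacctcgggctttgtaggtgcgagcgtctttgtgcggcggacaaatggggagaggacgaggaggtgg
Cebpa, chr7:35119043-35119342: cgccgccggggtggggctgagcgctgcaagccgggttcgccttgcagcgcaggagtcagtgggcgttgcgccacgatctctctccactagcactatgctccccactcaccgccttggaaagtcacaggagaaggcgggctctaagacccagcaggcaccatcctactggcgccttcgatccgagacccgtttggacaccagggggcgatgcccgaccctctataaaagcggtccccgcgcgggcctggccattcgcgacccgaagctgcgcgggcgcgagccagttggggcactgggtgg
Elf3, chr1:135258423-135258722: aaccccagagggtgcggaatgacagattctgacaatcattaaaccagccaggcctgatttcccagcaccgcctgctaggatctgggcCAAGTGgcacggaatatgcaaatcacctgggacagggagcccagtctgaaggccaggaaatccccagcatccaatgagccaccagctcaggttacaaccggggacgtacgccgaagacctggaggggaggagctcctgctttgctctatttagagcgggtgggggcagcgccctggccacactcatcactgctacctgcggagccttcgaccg
The FOXA motif was found in the Etv5 window shown from base 68 and in the Foxa1 window from base 110, in both on the opposite strand, and in 3.65% of the 32851 promoter windows of that length in the table. In Foxa1 the FOXA motif overlaps a SOX motif that starts at base 113, which 5.85% of all windows hold. The Elf3 window holds the NKX2-1 motif from base 88, as do 13.6% of all windows, and 1 of the 3 Foxa2 windows holds the GATA motif (11.2% of all windows). No match was found for the C/EBP, ETS or KLF motifs in any of the 9 windows, which says only that these letters are not there. Etv5 has a second window (chr16:22438319-22438618), not shown, that holds none of the 7 motifs. G and C made up 74.0% of the Etv5 window shown and 60.0% of its other window, 67.3% for Cebpa, 62.3% for Foxa1 and 59.0% for Elf3, against a median of 52.7% over all windows.

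In uninjured wild-type cells the factors spanned a wide range of levels. Etv5 was highest on average, at 228 ± 14.3 FPKM (SD, n = 3), above 97.7% of the tested genes. Cebpa (138 ± 98 FPKM), Cebpd (55.6 ± 25.6), Nkx2-1 (49.9 ± 7.63) and Klf5 (49.7 ± 3.54) followed, then Elf3 (37.8 ± 14.3), Foxa2 (31.1 ± 5.08), Foxa1 (16.4 ± 14.8) and Gata6 (9.33 ± 2.92). Every neighbouring pair of these 9 overlapped in its library values, so the order between neighbours was not resolved. Sox9 was lowest, at 0.0963 ± 0.0837 FPKM, and did not overlap Gata6. In the other 3 groups Etv5 stood above all other factors with no overlap.

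**Figure D1:**
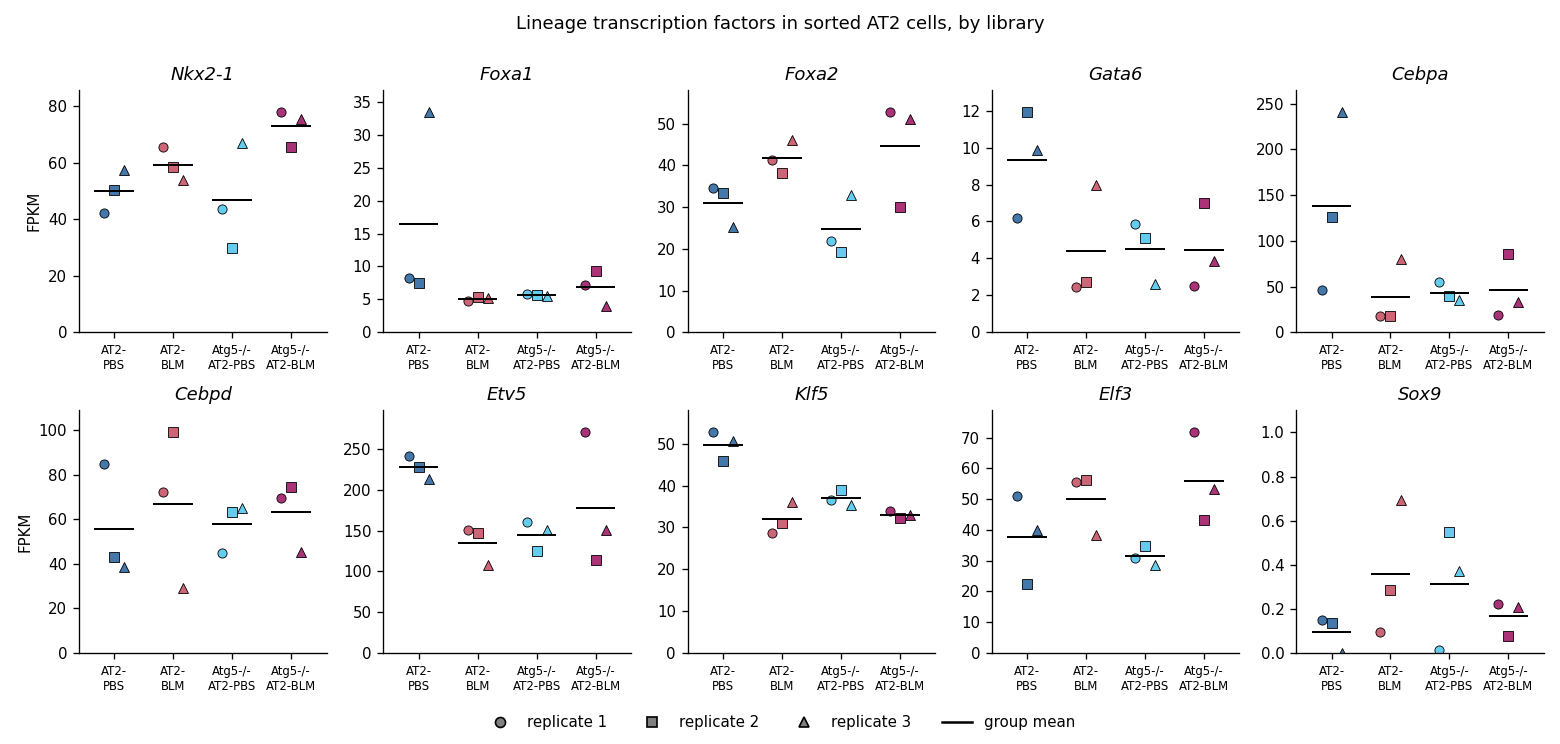
FPKM of the 10 factors (1 panel each, own linear axis) in the 4 groups, with 1 point per library, the marker giving the replicate number, and a bar at the group mean. For Klf5 and Etv5 all 3 AT2-PBS libraries lie above every AT2-BLM and every Atg5-/- AT2-PBS library. Over all genes, 40.2% and 28.9% had groups that did not overlap in these comparisons. Foxa1 and Cebpa have 1 very high AT2-PBS library, and Sox9 stays under 1 FPKM throughout.

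After BLM in wild-type cells, 5 of the 9 tested factors fell and none rose. These were Klf5, Etv5, Foxa1, Gata6 and Cebpa, by 0.62 to 1.89 on the log2(FPKM + 1) scale, a scale that understates changes of low genes. A gene was called when limma gave p under 0.05, not adjusted, together with a 1.4-fold change or more. By that rule 28.4% of all 10675 tested genes were called, 20.6% higher and 7.77% lower. The factors' median change was -0.62 beside 0.17 over all genes. Scaling the libraries in 3 other ways moved the median of all genes to between -0.02 and 0.02 the share of all genes called lower to between 12.1% and 13.1%, and the share of calls that were higher from 72.6% to between 43.3% and 50.9%, with the 5 factors still called lower and none higher each time. With the p-value adjusted over all genes (Benjamini-Hochberg), Klf5 was the 1 factor of the 9 to pass 0.05, as did 17.4% of all genes with that fold change. Nkx2-1, Foxa2, Elf3 and Cebpd were not called. Without AT2-PBS replicate 1 Elf3 was called higher (0.69). Without the 3 libraries with islet transcripts it was called higher as well (0.69) while Etv5 was no longer called (-0.72), so the 5 calls there were 4 falls and 1 rise.

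Without Atg5, in PBS-treated mice, 3 of the 9 factors were lower than in wild type (Etv5, Foxa1 and Gata6), by 0.65 to 1.07, where 19.3% of all genes were called and 5.16% were lower. The median was -0.42 over the factors and 0.02 over all genes. After adjustment over all genes 0 factors passed in limma, beside 11.2% of all genes. At an unadjusted p under 0.05 alone 4 did, Klf5 being the fourth, beside 22.4% of all genes. This comparison uses the same 3 AT2-PBS libraries as the BLM comparison, so the resemblance between the columns of the plot of differences is not independent. Scaled to Cdh1, the E-cadherin gene of epithelial cells, the median of all genes moved to 0.34 and 0 factors were called, whereas quantile normalization moved it to -0.17 and 5 were called, with Cebpa and Klf5 added. The share of calls that were higher was 73.2% as deposited, 97.2% scaled to Cdh1 and 42.6% after quantile normalization.

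Atg5-/- AT2-PBS libraries also carried transcripts of other cell types at levels the AT2-PBS libraries did not. The 10 leukocyte markers summed to between 753 and 1055 FPKM against 11.8 to 56.2, with Ptprc, the CD45 gene, at 7.54 to 8.46 FPKM against 0.0119 to 0.621. The 6 mesenchymal markers summed to between 87.7 and 97.5 FPKM against 3.49 to 12.9, the 6 airway markers, mostly Scgb1a1 of club cells, to between 23296 and 84702 FPKM against 4956 to 11742, and the 10 hepatocyte markers to between 1852 and 3180 FPKM against 3.34 to 510. Of the 4 tested airway markers, 3 were called higher in Atg5-/- AT2-PBS than in AT2-PBS, and Tppp3 was not called (-0.19). All markers of the leukocyte, mesenchymal, airway and hepatocyte lists were above 0 in at least 1 Atg5-/- AT2-PBS library. Cdh1 was at 82.1 to 109 FPKM in these libraries and at 105 to 138 in AT2-PBS. Since all 3 libraries of the group share this, it cannot be told apart from the genotype. After BLM in wild-type cells the leukocyte sum was 52.9 to 131 FPKM and the hepatocyte sum 222 to 724. The airway sum was lower with BLM, at 880 to 4960 FPKM against 4956 to 11742 in AT2-PBS, and 3 of its 4 tested markers fell, Scgb1a1 (-2.08, adjusted p = 0.0425), Cyp2f2 (-1.82, adjusted p = 0.0194) and Tppp3 (-1.47, adjusted p = 0.00467). The part of these transcripts in the BLM results, the 5 falling factors included, was not tested.

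After BLM, cells with and without Atg5 did not differ in any of the 9 factors by the rule that called 5.16% of all genes in limma, 2.04% higher and 3.12% lower. At an unadjusted p under 0.05 alone the count was also 0, beside 7.88% of all genes, with the smallest limma p of 0.233 for Nkx2-1. After adjustment it was 0 of the 9 and 0.00937% of all genes. Nkx2-1 was the 1 factor whose groups did not overlap, by a gap from 65.4 to 65.5 FPKM, as was so for 13.4% of all genes. The median difference was 0.15 over the factors and -0.05 over all genes. The 95% intervals still allow sizeable differences, from -0.22 to 0.32 for Klf5, the narrowest, and from -1.17 to 1.84 for Cebpa, the widest. Scaled to Cdh1, 1 factor, Etv5, was called higher without Atg5 (0.49), and the share of calls that were higher moved from 39.6% to 79.6%.

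In Atg5-/- cells Nkx2-1, Foxa2 and Elf3 rose by 0.70, 0.82 and 0.79 and none fell, where 18.4% of all genes were called and 7.66% were higher. The median was 0.17 over the factors and 0.06 over all genes. After adjustment over all genes 0 factors passed in limma, beside 8.65% of all genes. The sums of leukocyte (53.7 to 238 FPKM), mesenchymal (5.06 to 15.6), airway (1173 to 2173) and hepatocyte markers (159 to 1118, with 6 of 9 tested markers called lower) were lower in Atg5-/- AT2-BLM than in Atg5-/- AT2-PBS, and Cdh1 was at 93.8 to 168 FPKM. Scaled to Cdh1, the median of all genes moved to -0.32 and none of these 3 was called, while Klf5 was called lower (-0.61), and the share of calls that were higher moved from 41.7% to 4.6%. Without the 3 libraries with islet transcripts, only Elf3 of the 3 was called (0.91), with Nkx2-1 at 0.12 and Foxa2 at 0.38. That leaves 1 Atg5-/- AT2-PBS library, which the fit assumes to vary like the others. With Y-linked expression as a covariate 6 factors were called, with Etv5 (0.51) and Cebpd (0.67) higher and Cebpa lower (-1.21) in addition to the 3.

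The difference between the 2 BLM responses was tested as an interaction, the change in Atg5-/- minus the change in wild type. It was called for 2 of the 9 factors, Etv5 (0.96) and Foxa1 (1.37), a share near that of all genes, where 20.2% of all genes were called and 5.02% were positive and 15.2% negative. Neither passed the adjustment, as 7.89% of all genes did. Between scalings the share of calls that were positive ran from 10.6% to 54.8%, against 24.9% as deposited. The median was 0.47 over the factors and -0.09 over all genes. For Nkx2-1, Foxa2 and Elf3, which were called in Atg5-/- cells and not in wild type, the interaction was not called (0.45, 0.39 and 0.34), so their responses were not shown to differ between genotypes.

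**Figure D2:**
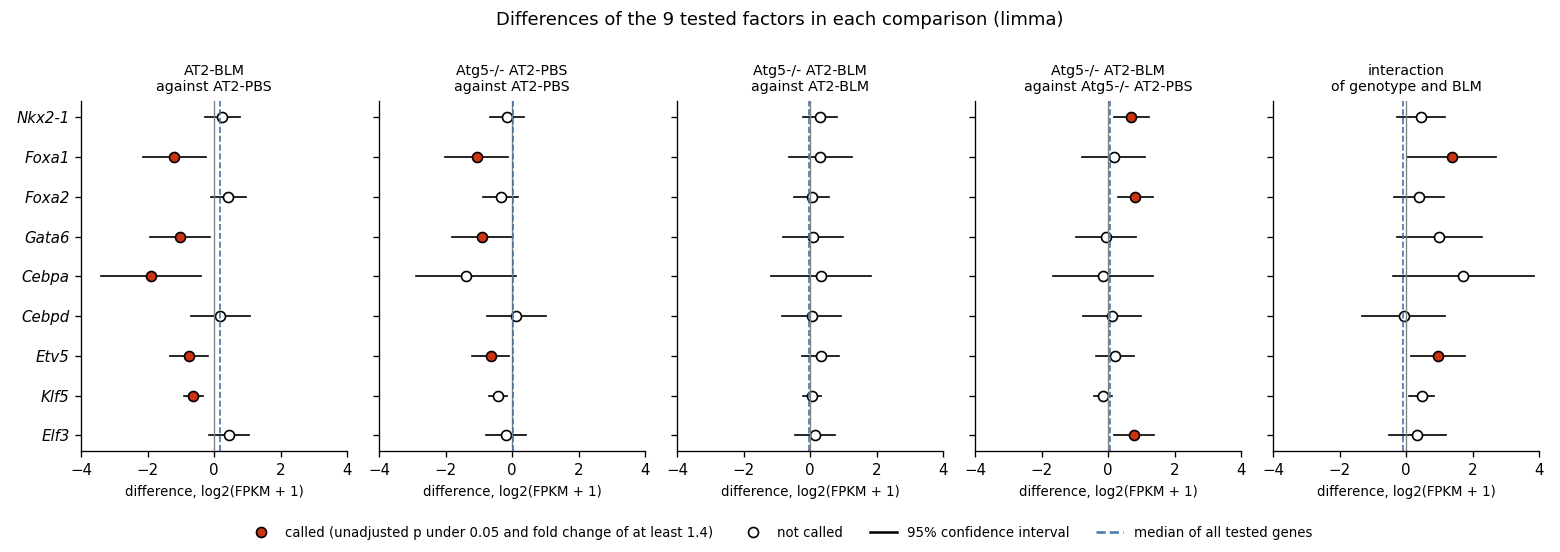
Differences of the 9 tested factors on the log2(FPKM + 1) scale in 5 comparisons (limma, 12 libraries in 1 fit), with 95% confidence intervals. Filled points passed the call rule, the grey line is 0 and the dashed line is the median of all tested genes. Filled points lie left of 0 in the first 2 panels (5 and 3 factors) and right of 0 in the last 2 (3 and 2).

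Nkx2-1, the homeobox gene that marks the lung and thyroid lineage from its start, lies on chromosome 12 (NCBIM37, 57632922 to 57637895, minus strand). Its FPKM was 42.1, 50.2 and 57.4 in AT2-PBS, 65.4, 58.5 and 53.8 in AT2-BLM, 43.7, 29.7 and 66.8 in Atg5-/- AT2-PBS, and 78.0, 65.5 and 75.4 in Atg5-/- AT2-BLM. The Atg5-/- AT2-BLM libraries were the highest of the 4 groups on average, but Atg5-/- AT2-PBS replicate 3 reached into their range. The rise with BLM in Atg5-/- cells was 0.70 ± 0.24 (SE, adjusted p = 0.095 in limma). Leaving out Atg5-/- AT2-PBS replicate 2, the lowest library, reduced it to 0.42 and ended the call. In wild-type cells the change was 0.25 with a 95% interval from -0.27 to 0.77.

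Foxa1 and Foxa2 encode forkhead pioneer factors that open chromatin in endoderm and act in part redundantly in the lung. Foxa1 (chromosome 12, 58641618 to 58647108, minus strand) was at 8.28, 7.51 and 33.5 FPKM in AT2-PBS and at 4.79, 5.31 and 5.18 in AT2-BLM. The groups did not overlap, as was the case for 40.2% of all genes, but AT2-PBS replicate 3 stood far above the other two. The fall was 1.2 ± 0.44 (SE, adjusted p = 0.0773). Without AT2-PBS replicate 3 it was 0.54 and was no longer called. The Atg5-/- AT2-PBS libraries, at 5.89, 5.67 and 5.45 FPKM, were all lower than AT2-PBS as well (28.9% of all genes had groups that did not overlap). They were lower by 1.07 ± 0.44 (adjusted p = 0.163), or by 0.41 and uncalled without AT2-PBS replicate 3. That call was also lost without any 1 of the Atg5-/- AT2-PBS libraries, at differences between -1.09 and -1.04, and without the 3 libraries with islet transcripts. In Atg5-/- AT2-BLM the values were 7.21, 9.30 and 4.0 FPKM. The interaction of 1.37 was 0.72 and not called without AT2-PBS replicate 3, and 8 of the other 11 libraries ended the call as well.

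Foxa2 (chromosome 2, 147868613 to 147872705, minus strand) moved otherwise. It was at 34.5, 33.5 and 25.2 FPKM in AT2-PBS and at 41.4, 38.1 and 46.1 in AT2-BLM. All 3 AT2-BLM libraries were above all 3 of AT2-PBS, and 40.2% of all genes had groups that did not overlap there. Foxa2 was not called, with a difference of 0.43 ± 0.24 (adjusted p = 0.23). In Atg5-/- cells it was at 21.9, 19.3 and 32.9 FPKM with PBS and at 52.9, 30.0 and 51.0 with BLM. Replicates 1 and 3 of the BLM group were above all PBS libraries and replicate 2 was within their range, a rise of 0.82 ± 0.24 (adjusted p = 0.0566). It was called without each library in turn, at between 0.67 and 1.08. Since a ratio of 2 genes in 1 library does not depend on the scaling of libraries, Foxa2 over Foxa1 was also computed. It was 4.16, 4.46 and 0.752 in AT2-PBS and 8.64, 7.17 and 8.89 in AT2-BLM, so all AT2-BLM libraries were above all AT2-PBS libraries, also without replicate 3. This had to follow, since every AT2-BLM library was above AT2-PBS for Foxa2 and below it for Foxa1. The share of such ratios over all gene pairs was not computed. With 3 against 3 an exact permutation test cannot give a p below 0.1, and none was run. The Atg5-/- groups overlapped, at 3.41 to 6.04 with PBS and 3.23 to 12.7 with BLM.

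Gata6, the zinc finger factor that acts with NKX2-1 on surfactant genes, was at 6.18, 11.9 and 9.87 FPKM in AT2-PBS, 2.43, 2.75 and 7.99 in AT2-BLM, 5.88, 5.12 and 2.60 in Atg5-/- AT2-PBS, and 2.50, 7.02 and 3.87 in Atg5-/- AT2-BLM. AT2-BLM replicate 3 fell within the AT2-PBS range. The fall with BLM was 1.04 ± 0.41 (adjusted p = 0.1) and the difference without Atg5 in PBS-treated mice -0.91 ± 0.41 (adjusted p = 0.218). The first call was lost when AT2-PBS replicate 2, AT2-PBS replicate 3, AT2-BLM replicate 1 or AT2-BLM replicate 2 was left out, at differences between -0.98 and -0.79. The second was lost without AT2-PBS replicate 2 or 3 or Atg5-/- AT2-PBS replicate 2 or 3, at differences between -1.01 and -0.63. Leaving out replicate 2 of AT2-BLM, or replicate 3 of the Atg5-/- BLM group, also ended it, although these enter through the shared spread only and the difference stayed at -0.91. An annotated gene on the other strand, 1010001N08Rik, overlaps Gata6, and whether the counting used strand is not stated.

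Cebpa and Cebpd encode basic leucine zipper factors, the first needed for AT2 maturation and lipid synthesis, the second a partner that responds to glucocorticoids and inflammation. Cebpa (chromosome 7, 35904312 to 35906945, plus strand, 1 exon) varied more between libraries of a group than any other tested factor. It was at 46.2, 126 and 241 FPKM in AT2-PBS and at 17.3, 18.1 and 80.6 in AT2-BLM. The groups overlapped through AT2-BLM replicate 3, and the fall of 1.89 ± 0.69 (adjusted p = 0.0781) was not called without AT2-PBS replicate 3 (-1.34), AT2-BLM replicate 1 (-1.52) or AT2-BLM replicate 2 (-1.55). Atg5-/- AT2-PBS was at 54.6, 39.6 and 34.8 FPKM and Atg5-/- AT2-BLM at 18.4, 85.8 and 33.0.

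Cebpa levels and Y-linked expression moved together between libraries. In the 3 groups that held both kinds, the libraries with the lowest Cebpa had low Y-linked sums, and Gata6 followed the same pattern. Among libraries with high Y-linked expression (1 AT2-BLM, 2 AT2-PBS), Cebpa was 1.1 lower after BLM, and among those with low expression (2 AT2-BLM, 1 AT2-PBS) 1.34 lower. The corresponding falls were 0.40 and 1.00 for Gata6, 1.47 and 0.62 for Foxa1, 1.02 and 0.70 for Etv5 and 0.40 and 0.80 for Klf5, values with 1 library in an arm of each set and for factors already chosen as lower in these 6 libraries, so they are a description only. For Atg5-/- AT2-PBS against AT2-PBS only libraries with low expression can be compared (3 against 1). There Cebpa was 0.13 lower, Gata6 0.43, Foxa1 0.48, Klf5 0.50 and Etv5 0.74, and factors that were not called in that comparison were lower too, Elf3 by 0.68, Cebpd by 0.57 and Foxa2 by 0.50, against that 1 library. With Y-linked expression as a covariate, the wild-type fall of Cebpa was 1.39 and that of Gata6 0.78, both still called, while in Atg5-/- AT2-PBS against AT2-PBS Gata6 and Foxa1 were no longer called and Elf3 was called lower (-0.53).

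Transcripts rich in G and C also differed between libraries. The 155 tested genes above 62% G and C, Cebpa among them at 62.6%, deviated from their own mean over libraries by a median of 0.37 (log2) in Atg5-/- AT2-BLM replicate 2, where all genes deviated by -0.03. In AT2-PBS replicate 3 it was 0.05 against -0.11 over all genes, and in AT2-BLM replicate 3 it was 0.17 against 0.16. These 3 libraries had the highest Cebpa of their groups. After a correction for G and C content, which 92% of tested genes allowed, the fall of Cebpa in wild type was 2.02 and was still called.

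Cebpd (chromosome 16, 15887379 to 15888559, plus strand, listed as a pseudogene in the mm9 annotation used here) was not called in any of the 5 comparisons. It was at 85.0, 43.3 and 38.5 FPKM in AT2-PBS, 72.3, 99.1 and 29.4 in AT2-BLM, 45.0, 63.5 and 65.1 in Atg5-/- AT2-PBS, and 69.8, 74.7 and 45.4 in Atg5-/- AT2-BLM. All 4 groups overlapped, with differences between -0.07 and 0.19. Cebpa over Cebpd ran from 0.544 to 6.26 in AT2-PBS and from 0.183 to 2.74 in AT2-BLM, with overlap.

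**Figure D3:**
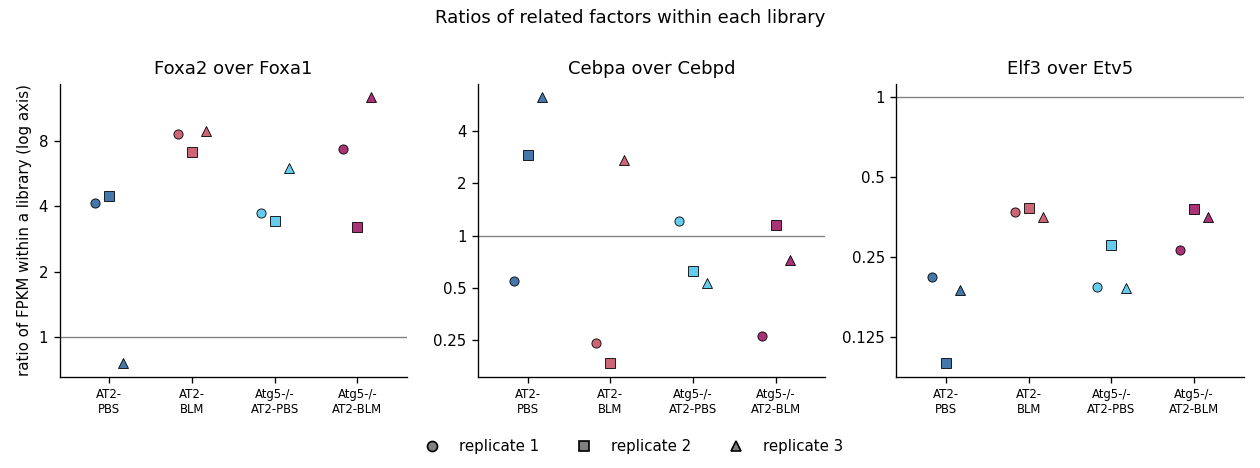
Ratio of the FPKM of 2 related factors within each library (log axis), by group, with 1 point per library and the marker giving the replicate number. Foxa2 over Foxa1 and Elf3 over Etv5 are higher in all 3 AT2-BLM libraries (from 7.17 and 0.354) than in any AT2-PBS library (up to 4.46 and 0.21), while Cebpa over Cebpd overlaps between groups. Foxa1, Foxa2 and Etv5 alone also do not overlap between AT2-BLM and AT2-PBS, as for 40.2% of all genes. Foxa2 over Foxa1 therefore had to separate, and the share of such ratios over all gene pairs was not computed.

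Etv5, an ETS factor downstream of FGF and ERK signalling, lies on chromosome 16 (22381382 to 22439792, minus strand). It was at 242, 228 and 213 FPKM in AT2-PBS and at 151, 147 and 108 in AT2-BLM. Every AT2-BLM library was below every AT2-PBS library, and 40.2% of all genes had groups that did not overlap there. The fall of 0.76 ± 0.26 (adjusted p = 0.0622) was no longer called without AT2-BLM replicate 3 (0.61). Atg5-/- AT2-PBS, at 160, 125 and 151 FPKM, was also below AT2-PBS in all libraries (28.9% of all genes had groups that did not overlap), by 0.65 ± 0.26 (adjusted p = 0.155). That call was lost without AT2-PBS replicate 1 or 2 or Atg5-/- AT2-PBS replicate 2, at between -0.65 and -0.55. It was also lost without the 3 libraries with islet transcripts, which left 1 Atg5-/- AT2-PBS library. In Atg5-/- AT2-BLM the values were 271, 114 and 151 FPKM, so that 1 library was above all of AT2-PBS and the other two far below. The interaction of 0.96 ± 0.37 (adjusted p = 0.149) was 0.62 without that library, Atg5-/- AT2-BLM replicate 1, and still called. It was not called without Atg5-/- AT2-PBS replicate 2 (0.86) or AT2-BLM replicate 3 (0.81).

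Klf5, a zinc finger factor of epithelial proliferation and alveolar cell fate, lies on chromosome 14 (99697910 to 99712624, plus strand). It had the smallest standard error of the 9 factors. It was at 52.7, 45.8 and 50.6 FPKM in AT2-PBS and at 28.8, 31.1 and 36.1 in AT2-BLM. The groups did not overlap, as for 40.2% of all genes, and the fall was 0.62 ± 0.12 (adjusted p = 0.00749, 1.54-fold). The call held under all alternatives tried, with each library left out (falls of 0.55 to 0.71) and under each scaling. In Atg5-/- AT2-PBS it was at 36.5, 38.9 and 35.4 FPKM, below all AT2-PBS libraries (28.9% of all genes had groups that did not overlap). The difference of -0.42 ± 0.12 missed the fold change of 1.4 (1.33-fold, adjusted p = 0.0522). Scaled to Cdh1 that difference was -0.03. In Atg5-/- AT2-BLM it was at 34.0, 32.2 and 32.9 FPKM, all below Atg5-/- AT2-PBS (24.9% of all genes had groups that did not overlap). The difference of -0.16 was not called. The interaction was 0.47 ± 0.18 with a 1.38-fold difference (adjusted p = 0.146), under the fold change required. After quantile normalization (0.69) or median-ratio scaling (0.57) it was called.

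**Figure D4:**
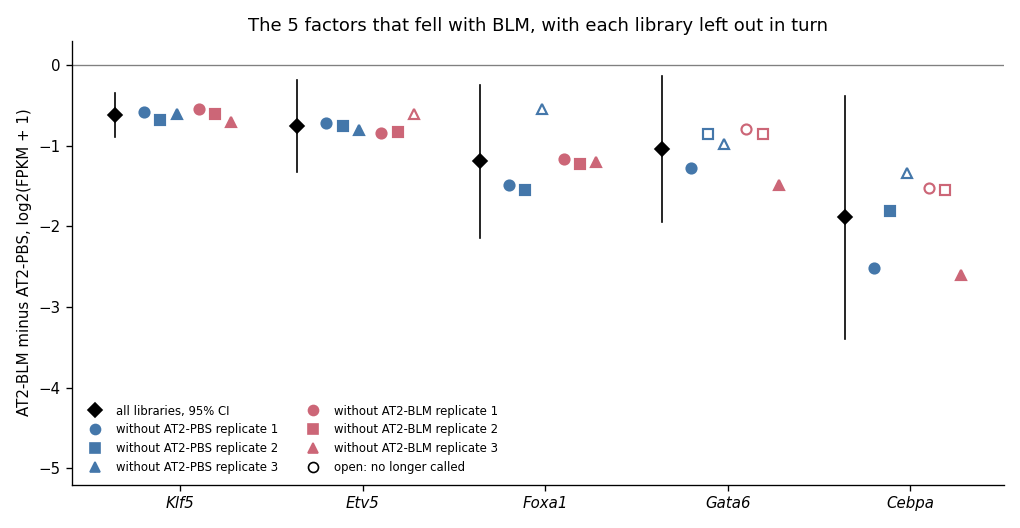
Change from AT2-PBS to AT2-BLM on the log2(FPKM + 1) scale for the 5 factors that fell, with all libraries (diamond, 95% confidence interval) and with each of the 6 libraries of the comparison left out in turn. Open markers no longer pass the call rule, as for Foxa1 without AT2-PBS replicate 3 (-0.54), whereas Klf5 stays between -0.71 and -0.55 and filled.

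Elf3, an epithelial ETS factor that responds to inflammatory signals, lies on chromosome 1 (137150151 to 137155049, minus strand) and overlaps Gm16606 on the other strand. It was at 50.9, 22.6 and 40.0 FPKM in AT2-PBS, 55.7, 56.1 and 38.3 in AT2-BLM, 30.8, 34.9 and 28.7 in Atg5-/- AT2-PBS, and 71.6, 43.2 and 53.3 in Atg5-/- AT2-BLM. In Atg5-/- cells all BLM libraries were above all PBS libraries, while 24.9% of all genes had groups that did not overlap there, and the rise was 0.79 ± 0.27 (adjusted p = 0.106). Without Atg5-/- AT2-BLM replicate 1, the highest library, it was 0.60 and not called. The wild-type change was 0.45 ± 0.27 with overlap. It was 0.12 without AT2-PBS replicate 2 and 0.69, and called, without AT2-PBS replicate 1. Elf3 over Etv5, both ETS genes, was 0.21, 0.0991 and 0.188 in AT2-PBS and 0.369, 0.382 and 0.354 in AT2-BLM, apart in all libraries. Etv5, the denominator, was already lower in every AT2-BLM library, and the share of such ratios over all gene pairs was not computed. The ratio was 0.19 to 0.278 in Atg5-/- AT2-PBS and 0.265 to 0.38 in Atg5-/- AT2-BLM, which overlapped.

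Sox9, which marks embryonic tip progenitors, was between 0 and 0.692 FPKM in every library (highest in AT2-BLM replicate 3). Sox2, its airway counterpart, was at 0.798 FPKM at most. Of 8 airway transcription factors, 6 were under 1 FPKM in every library, and of 10 transcription factors of other endoderm organs, 8 were, Hnf4a and Pdx1 among them.

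The gene named by rule with the largest difference in the families of these factors was Nkx2-9, the homeobox neighbour of Nkx2-1, 74.5 kb away (chromosome 12, 57712376 to 57714271). It was at 0.243, 0.378 and 0.816 FPKM in AT2-PBS, and at 52.4, 43.5 and 21.7 in AT2-BLM, 40.4, 34.8 and 35.7 in Atg5-/- AT2-PBS, and 56.5, 29.5 and 22.1 in Atg5-/- AT2-BLM. The 3 AT2-PBS libraries were under 1 FPKM and the other 9 at 21.7 FPKM or more. Nkx2-9 was 4.69 ± 0.35 higher with BLM in wild type (adjusted p = 3.1e-05) and 4.70 ± 0.35 higher without Atg5 in PBS-treated mice (adjusted p = 1.42e-05), both against the same 3 libraries. The interaction was -4.84 ± 0.49 (adjusted p = 0.000616). These calls were unchanged without any 1 library and under the other alternatives run. Nkx2-1 itself did not show the pattern. Mbip, 186 kb to the other side, was at 28.8 to 58.6 FPKM in all libraries, and Pax9, 155 kb from Nkx2-1 beyond Nkx2-9, at 0.142 FPKM at most. Foxa1 lies on the same chromosome 1004 kb from Nkx2-1. Reads of Nkx2-1 and Nkx2-9, paralogs of 1 family, could be split between them by the counting, and this was not tested.

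**Figure D5:**
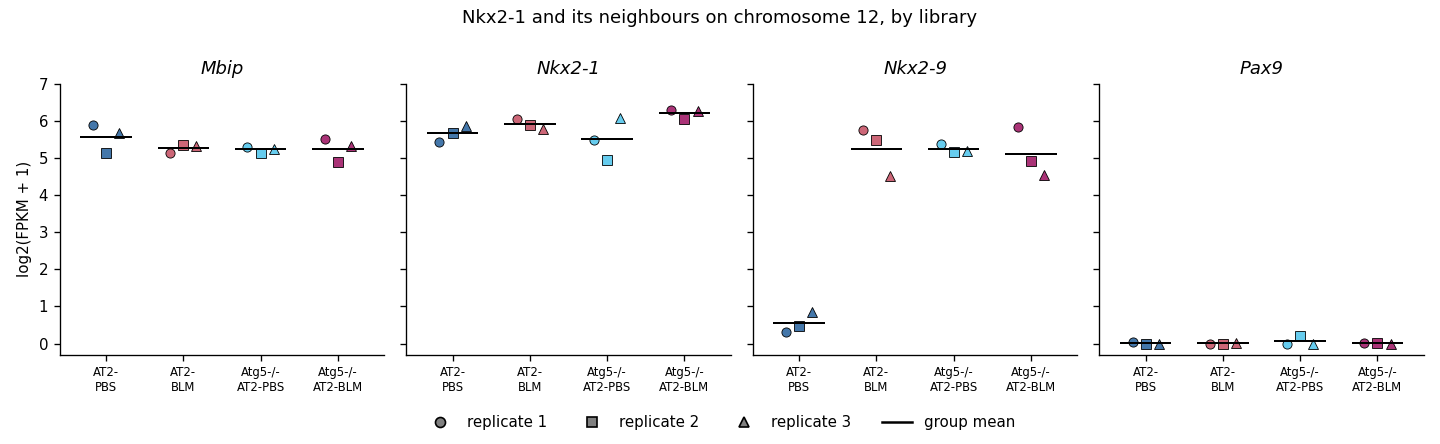
log2(FPKM + 1) of Nkx2-1 and 3 of its neighbours on chromosome 12 in the 4 groups, with 1 point per library, the marker giving the replicate number, and a bar at the group mean. Nkx2-9 is near 0 in the 3 AT2-PBS libraries (0.243 to 0.816 FPKM) and high in the other 9 (21.7 to 56.5 FPKM), while Nkx2-1 and Mbip are high and Pax9 is near 0 in all 12.

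Other members of the same families were read from lists, in which genes with an adjusted p of 0.05 or more were named after their values were seen. None of the list genes with an adjusted p under 0.05 that are named here changed direction under any alternative run. Of the recomputed differences behind those adjusted p-values, 721 stayed called and 18 did not. Of 12 tested NKX relatives and partners, 1 rose and 1 fell with BLM in wild type, Nkx2-9 and Nfia (-0.69, adjusted p = 0.0206), a nuclear factor I gene. Over all genes 20.6% were called higher and 7.77% lower in that comparison. Without Atg5 in PBS-treated mice Srebf1, the regulator of lipid synthesis, was lower (-0.65, adjusted p = 0.0205). Scaled to Cdh1 it was not called (-0.27). Without the libraries with islet transcripts, which left 1 Atg5-/- AT2-PBS library, the Srebf1 difference was -0.58. Nfia was called higher without Atg5 after BLM (0.60, adjusted p = 0.607). In the interaction Srebf1 (0.61, adjusted p = 0.15) and Ctnnb1 (0.63, adjusted p = 0.167) were called. Wwtr1, Yap1, Nfib and Grhl2 were not called in any comparison. Of 10 ETS genes, Elf1 (-0.61, adjusted p = 0.0328), Etv5 and Spdef (-0.61, adjusted p = 0.0762) fell with BLM in wild type and Ets1 rose (0.66, adjusted p = 0.0613). The shares over all genes were again 7.77% lower and 20.6% higher. Ets1, an ETS gene of lymphoid and endothelial cells, was 0.97 higher without Atg5 in PBS-treated mice (adjusted p = 0.0127), the group with the raised leukocyte markers.

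Of 10 tested KLF genes, zinc finger factors related to Klf5, 6 fell with BLM in wild type and none rose, where 7.77% of all genes were called lower (12.1% to 13.1% under the other scalings). They were Klf5, Klf2 (-1.18, adjusted p = 0.0203), Klf9 (-1.41, adjusted p = 0.0331), Klf6 (-1.1), Klf11 (-0.68) and Klf4 (-1.18), with a median of -0.65. The count of 6 and the median are for the deposited scaling and were not redone under the others, where Klf5, Klf2 and Klf9 stayed called. Klf2 was at 8.84, 6.14 and 15.1 FPKM in AT2-PBS and at 4.16, 3.40 and 3.29 in AT2-BLM. In Atg5-/- cells 4 fell with BLM, Klf6 (-2.03, adjusted p = 0.0196), Klf2 (-1.05, adjusted p = 0.0495), Klf4 and Klf10, and Klf5 did not pass. Over all genes 10.7% were called lower there. Without the libraries with islet transcripts, which left 1 Atg5-/- AT2-PBS library, the Klf2 difference was -0.82. Klf6 ran from 24.8 to 95.9 FPKM within AT2-PBS alone.

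Of 10 forkhead genes, Foxp1 (-0.76, adjusted p = 0.0514) fell along with Foxa1 with BLM in wild type, and Foxa3, a gene near 1 FPKM, rose (0.49). Foxo3 (1.03, adjusted p = 0.0436, but 0.66 without Atg5-/- AT2-PBS replicate 3) was higher without Atg5 in PBS-treated mice. The rule called 28.4% of all genes with BLM in wild type and 19.3% without Atg5 in PBS-treated mice. With BLM in Atg5-/- cells it called 18.4%. Of 6 C/EBP genes, Cebpa alone was called with BLM in wild type, and Ddit3 fell with BLM in Atg5-/- cells (-0.78, adjusted p = 0.0645). Cebpb, singled out after its values were seen, was at 182 FPKM in AT2-PBS replicate 3 and at 9.28 FPKM or less in the other 11 libraries, and was not called. Sox4, a SOX gene of injured and developing epithelium, was at 7.17, 12.7 and 51.9 FPKM in AT2-PBS and at 4.75, 2.13 and 6.30 in AT2-BLM, a fall of 1.83 (adjusted p = 0.0478). Without AT2-PBS replicate 3 the difference was -1.05. The library high for Foxa1 and Cebpa, AT2-PBS replicate 3, was also the highest for Cebpb and Sox4. Gata6 was the only 1 of 8 GATA genes and cofactors to pass the filter.

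Of 9 tested surfactant and lamellar body genes, Sftpb (1.81, adjusted p = 0.0436) and Ctsh (0.81) rose with BLM in wild type and Lpcat1 (-0.49, adjusted p = 0.037) and Abca3 (-0.51, adjusted p = 0.0771) fell. Over all genes 20.6% were called higher and 7.77% lower in that comparison. Sftpb was at 1777, 11572 and 2590 FPKM in AT2-PBS and at 16779, 15336 and 8984 in AT2-BLM, with overlap, and its call was lost without the islet-bearing libraries. The Lpcat1 call was lost without AT2-PBS replicate 1 or 2, AT2-BLM replicate 3 or the islet-bearing libraries, at differences of -0.46 to -0.44. Lpcat1, which makes the surfactant phospholipid, was at 718, 709 and 611 FPKM in AT2-PBS and between 435 and 634 in the other 9 libraries. It and Abca3, the lamellar body lipid transporter, were called lower without Atg5 in PBS-treated mice (-0.61 and -0.63, adjusted p = 0.014 and 0.0492). Scaled to Cdh1 they were not called (-0.21 and -0.24). Lamp3 was lower there as well (-0.66, adjusted p = 0.128) and Sftpb was higher (1.57, adjusted p = 0.108). That made 1 higher and 3 lower of 9, where 14.1% of all genes were called higher and 5.16% lower. Without the islet-bearing libraries, which left 1 Atg5-/- AT2-PBS library, Lpcat1 and Abca3 differed by -0.55 and -0.37. Of 6 tested FGF and ERK feedback genes, the receptor gene Fgfr2 (-1.07, adjusted p = 0.0237) and Spry1 (-1.34, adjusted p = 0.0328, but -0.86 without AT2-PBS replicate 3) fell with BLM in wild type. That is 33.3% of the list, near the 28.4% of all genes called, of which 7.77% of all genes were lower. Fgfr2 and Spry1 were also called lower without Atg5 in PBS-treated mice (-0.66, adjusted p = 0.184, and -1.52, adjusted p = 0.02). There 19.3% of all genes were called and 5.16% were lower. After BLM neither was called without Atg5 (0.55 and 0.04).

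Of 12 AT1 genes, 8 rose with BLM in wild type and none fell, with a median of 0.96, where 20.6% of all genes were called higher (9.26% to 13.2% under the other scalings). Among them were Hopx (2.10, adjusted p = 0.00112), Pdpn (3.26, adjusted p = 0.00132), Akap5 (1.72, adjusted p = 0.00496) and Cav1 (1.34, adjusted p = 0.0115). The count of 8 and the median are for the deposited scaling and were not redone under the others, where each of these genes stayed called. Hopx, a homeobox gene of AT1 cells, was at 2.13, 2.83 and 4.33 FPKM in AT2-PBS and at 16.8, 10.3 and 24.2 in AT2-BLM, with no overlap (as for 40.2% of all genes). In Atg5-/- cells 7 rose with BLM, where 7.66% of all genes were called higher. Akap5 (1.28, adjusted p = 0.024) and Emp2 (0.83, adjusted p = 0.0303) passed the adjustment, but scaled to Cdh1 Emp2 was not called (0.37). Without Atg5 after BLM 3 were lower by the call rule, Hopx (-0.79), Cav1 (-0.68) and Gprc5a (-0.64), with adjusted p-values of 0.618 or more. Over all genes 3.12% were called lower there. Ager, the AT1 receptor gene, was called only with BLM in Atg5-/- cells (0.54, adjusted p = 0.0579). Without Atg5 in PBS-treated mice 3 of the 12 were higher and 2 lower, where 14.1% of all genes were called higher and 5.16% lower. Pdpn (1.58, adjusted p = 0.0427), Igfbp2 (1.82) and Hopx (0.63) were higher, Emp2 (-0.71) and Aqp5 (-0.59) lower. Only Pdpn passed the adjustment. Without the islet-bearing libraries, which left 1 Atg5-/- AT2-PBS library, its difference was 1.31.

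The genes whose profile over the 12 libraries was most like that of Klf5, the 1 factor past the adjustment, were Elf1, Trim46 and Myh13. The root mean square difference of centred log2(FPKM + 1) values was 0.11, 0.11 and 0.12. Trim46 (0.81 to 2.22 FPKM) and Myh13 (0.37 to 1.65 FPKM) were near the filter, where this scale understates changes. Elf1, an ETS gene, was at 9.57, 7.09 and 9.18 FPKM in AT2-PBS, 4.70, 5.05 and 6.10 in AT2-BLM, 7.20, 6.60 and 6.56 in Atg5-/- AT2-PBS, and 7.01, 4.87 and 5.54 in Atg5-/- AT2-BLM. Like Klf5, for which it was selected as most alike, it was highest on average in AT2-PBS. One Atg5-/- AT2-PBS library, replicate 1, was above its lowest AT2-PBS library.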

How the data were processed

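RNA of sorted AT2 cells was sequenced in 12 libraries, 3 per group. Per the study's methods, the authors removed low-quality reads (Trimmomatic), used STAR for alignment to the mm9 genome and took 1 FPKM value per gene from Cufflinks. The submitters' processing notes name HISAT2 2.2.1.0, Cufflinks 2.2.1, HTSeq 0.9.1 and Trimmomatic 0.36, so the aligner is given in 2 ways. The methods also name DESeq, and whether the deposited FPKM values include its scaling is not stated, nor is strand use in counting. Absolute depth is unknown. Steps between low values gave relative depths of 1 to 1.15, and replicates within a group correlated at 0.938 to 0.987 (Pearson, across genes).

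From the deposited FPKM, log2(FPKM + 1) values of the 10675 genes at 1 FPKM or more in at least 3 libraries were fitted in limma 3.58.1 (R 4.3.3) with a mean-variance trend, all 12 libraries in 1 fit, and tested on simulated data first. A gene was called at p under 0.05 (two-sided, not adjusted) together with a 1.4-fold change or more, and Benjamini-Hochberg values over all tested genes stand beside it. The p-values measure the spread between these libraries. The 10 factors and all gene lists were chosen with earlier results of these data known. All 10 factors are named, with up to 4 genes per list and comparison with an adjusted p under 0.05, and the 3 genes most like each factor that passed it. Alternatives were another pseudocount (0.1), no filter, quantile, median-ratio and Cdh1 scaling, a replicate block, a fit of the compared groups alone, no trend, adjusted p-values, Y-linked expression as a covariate and each library left out. A fit without the 3 libraries with islet transcripts and a correction for G and C content were chosen after seeing the data. Replicate numbers are shared between groups, but nothing ties same-numbered libraries to 1 animal, litter or day. Promoter windows came from RefSeq (GRCm38.p6), gene positions from the mm9 annotation (NCBIM37). Other gene annotation was not used here.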

Additional observations from a re-analysis of the deposited data

Results flagged for a closer look

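By the interaction test of the 2 BLM responses in limma, 2 of the 9 tested factors were called by the unadjusted rule. From the lists of related factors and target genes, the 5 that also passed the adjustment are given. List genes that passed the unadjusted rule alone, such as Pdpn (-2.26) and Fgfr2 (1.21), are left out. The unadjusted rule called 20.2% of all genes, near the factors' share of 22.2%. Values are the change in Atg5-/- cells minus the change in wild-type cells on the log2(FPKM + 1) scale. Etv5 (0.96, adjusted p = 0.149) and Foxa1 (1.37, adjusted p = 0.234) passed the unadjusted rule only. Past the adjustment were Nkx2-9 (-4.84, adjusted p = 0.000616), Lpcat1 (0.77, adjusted p = 0.0392), Abca3 (0.98, adjusted p = 0.0417), Ets1 (-1.16, adjusted p = 0.0455) and Hopx (-1.43, adjusted p = 0.0491). All 7 rest on the same 3 AT2-PBS and 3 Atg5-/- AT2-PBS libraries, and the latter carry the raised leukocyte, airway and hepatocyte transcripts described above, whose part was not tested. Without the 3 libraries with islet transcripts Etv5 (0.86), Foxa1 (1.71), Lpcat1 (0.71), Abca3 (0.72) and Hopx (-0.99) were no longer called, and scaled to Cdh1 Foxa1 (1.18) and Lpcat1 (0.55) were not.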

How the results depend on the processing

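Klf5 fell with BLM in wild type under every alternative run. Of 1066 recomputed factor differences 901 kept their direction and side of the threshold, 70 lost the call, 33 gained one and 62 changed sign, 26 of the latter for Cebpd. The causes were not tested.

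The number of factors called changed as follows. With adjusted p-values it was 1 for BLM in wild type and 0 for Atg5 loss in PBS, BLM in Atg5-/- cells and the interaction (genes called 1856, 1195, 1, 923 and 842 over the 5 comparisons, against 3031, 2058, 551, 1962 and 2156). For Atg5 loss in PBS it was 5 after quantile normalization or GC correction and 0 scaled to Cdh1. Scaled to Cdh1 it was 1 for Atg5 loss after BLM, BLM in Atg5-/- cells and the interaction. For BLM in Atg5-/- cells it was 6 with the Y-linked covariate and 1 without the islet libraries. For the interaction it was 1 without the filter (Etv5). Without the islet libraries, which left 1 Atg5-/- AT2-PBS library, Etv5 and Foxa1 lost the interaction call and Gata6 (1.80) gained one. Leaving out 1 library gave 2 to 6, 0 to 4, 0 to 1 and 1 to 3 for BLM in wild type, Atg5 loss in PBS, Atg5 loss after BLM and the interaction.

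Replicate numbers did not pair the libraries (correlations of same-numbered deviations from -0.24 to 0.23). With the replicate block, 1 factor was called for the interaction (Foxa1 lost), and for Atg5 loss in PBS Cebpa was gained and Gata6 lost. Gene counts were 3014, 2055, 558, 1959 and 2166.

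Signs changed for uncalled differences. For BLM in wild type, Cebpd was -0.054, -0.00071 and -0.045 under quantile, median-ratio and Cdh1 scaling and -0.073 with the Y-linked covariate. For Atg5 loss in PBS, Nkx2-1, Foxa2 and Elf3 were 0.23, 0.042 and 0.20 scaled to Cdh1, Nkx2-1 and Foxa2 0.31 and 0.18 without the islet libraries, and Cebpd -0.41 with the covariate. For Atg5 loss after BLM, Cebpa and Gata6 were -0.19 and -0.20 with the covariate. For BLM in Atg5-/- cells, Gata6 was 0.0099 after quantile normalization, Etv5, Cebpd and Foxa1 -0.26, -0.34 and -0.22 scaled to Cdh1, and Cebpa, Cebpd and Gata6 0.11, -0.071 and 0.52 without the islet libraries. For the interaction, Cebpd was 0.16, 0.025 and 0.74 under quantile, median-ratio scaling and the covariate, and Nkx2-1 and Foxa2 -0.014 and -0.12 without the islet libraries.

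With 1 library left out, Cebpd ran from -0.17 to 0.69, -0.087 to 0.47, -0.45 to 0.41, -0.054 to 0.33 and -0.57 to 0.29 over the 5 comparisons. For Atg5 loss in PBS, Elf3 ran from -0.51 to 0.057 and Nkx2-1 from -0.45 to 0.12. For Atg5 loss after BLM the ranges were -0.25 to 1.04 (Cebpa), -0.24 to 0.52 (Gata6), -0.020 to 0.14 (Klf5), -0.089 to 0.31 (Foxa2), -0.038 to 0.32 (Elf3) and -0.032 to 0.59 (Etv5). For BLM in Atg5-/- cells they were -0.75 to 0.33 (Cebpa), -0.37 to 0.23 (Gata6), -0.14 to 0.48 (Etv5) and -0.057 to 0.46 (Foxa1). With 3 libraries per group and no read counts, differences of the size of these ranges could not be resolved.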
